A study of Homo sapiens with 6 samples.

Results

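A cassette exon is an exon that the spliced mRNA can include or skip. The exons described here are alternative cassette exons whose length is a multiple of 3, so that including or skipping them leaves the downstream reading frame as it was. They are the rows of the table of skipped exon (SE) events with an exon of 28 to 300 nt that is divisible by 3, a mean of at least 50 junction reads over the 6 libraries, and a percent spliced in (PSI, the share of the transcripts that include the exon) of 10% to 90% in the pooled control libraries. Of the 55919 SE events, 1416 (2.53%) met these limits. They comprise 1315 different exons in 1071 genes, because the same exon is listed once for each pair of flanking exons. The events were thus chosen by their control PSI and their reads, and the distribution of both is given only as a description.

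The cells were NCI-H1975, an established human lung adenocarcinoma (LUAD) line. The control libraries came from cells that received the empty PCDNA3.1 plasmid, and the SAM68 libraries from cells that received PCDNA3.1-SAM68 (2 ug of plasmid per well, carried by lipofectamine in both groups). RNA was taken 48 h after transfection, with 3 biological replicates in each group. The table names the groups by number only, and the first was read as control from the heading of the study's own splicing plot. List position gives the order of the libraries within a group and no more. The model is thus a transient overexpression in a single line, in addition to the cells' own SAM68. In bulk RNA, a shift of PSI in every cell and a shift in the share of cells with each form cannot be told apart.

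SAM68, encoded by KHDRBS1, is an RNA-binding protein of the STAR family that acts on the choice of exons. Exons are included when the splice sites on both sides are recognized by the spliceosome, and proteins such as SAM68, hnRNP A1 and PTBP1 bind in or near an exon and favour or repress this. An exon that keeps the frame adds or removes a short stretch of the protein, whereas an exon of another length shifts the frame and often brings in an early stop codon, by which the mRNA can be degraded. The comparison asks which of these exons differ in inclusion between SAM68-overexpressing and control cells.

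The most-read SE event of KHDRBS1 had 318, 336 and 323 reads, scaled to a common total over the most-read event of all genes (rpm), with the empty plasmid and 1260, 1289 and 1307 rpm with SAM68, a ratio of 3.95 between the means (two-sided p = 0.1 by exact permutation, the minimum for 3 against 3 libraries). Reads of the plasmid's transcript are counted with those of the gene. The SE table held 16951876 to 19737729 junction reads per library, of which 291785 to 354212 fell on the members. Among 8 epithelial markers only KRT8 has an SE event, read at 531 rpm in 1 control library and at 235 to 259 rpm in the other 5, and among 9 markers of other cells only CD68 has one, at 94.0 to 106 rpm in each library, so most defining markers cannot be seen in a table of cassette exons.

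The sequences shown first are those of the coding exons among the called events and among the largest rises and falls of events without overlap, with at least 20 reads in each library and an unadjusted p under 0.001. They have the exon in capitals and 10 intron bases on either side in lower case, 5' to 3' on the strand of the gene (GRCh38, read from hg38).
LTBP4 132 nt, chr19:40616889-40617020, + strand: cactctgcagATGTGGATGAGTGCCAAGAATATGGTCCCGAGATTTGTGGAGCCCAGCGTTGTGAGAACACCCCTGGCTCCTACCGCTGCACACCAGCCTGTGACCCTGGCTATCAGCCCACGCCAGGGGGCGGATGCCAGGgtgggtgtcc
LTBP4 126 nt, chr19:40617100-40617225, + strand: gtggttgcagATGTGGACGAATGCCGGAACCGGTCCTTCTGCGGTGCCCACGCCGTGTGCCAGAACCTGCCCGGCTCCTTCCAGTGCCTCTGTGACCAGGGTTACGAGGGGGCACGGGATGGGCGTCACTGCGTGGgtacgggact
AFMID 105 nt, chr17:78205946-78206050, + strand: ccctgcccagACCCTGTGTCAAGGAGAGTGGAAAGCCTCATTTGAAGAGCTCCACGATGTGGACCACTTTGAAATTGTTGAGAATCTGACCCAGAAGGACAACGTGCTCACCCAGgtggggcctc
FBXW11 63 nt, chr5:171914343-171914405, - strand: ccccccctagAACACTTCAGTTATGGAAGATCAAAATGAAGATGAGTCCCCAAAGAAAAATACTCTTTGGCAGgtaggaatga
TRIM14 93 nt, chr9:98091909-98092001, - strand: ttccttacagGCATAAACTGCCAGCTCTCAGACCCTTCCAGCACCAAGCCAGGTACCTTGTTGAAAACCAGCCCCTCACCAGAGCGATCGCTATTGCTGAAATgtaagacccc
TRIM37 144 nt, chr17:59001598-59001741, - strand: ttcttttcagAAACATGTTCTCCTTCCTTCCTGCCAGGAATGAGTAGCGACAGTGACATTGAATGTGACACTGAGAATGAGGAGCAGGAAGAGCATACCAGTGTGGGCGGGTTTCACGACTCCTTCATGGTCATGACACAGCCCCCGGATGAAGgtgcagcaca
The intron bases end in ag before each exon and begin with gt after it. The exons of LTBP4 are neighbours (exons 20 and 21 of the canonical transcript). The second set shows exons that were read deeply, from genes of RNA-binding proteins and from GNAS and CTTN.
HNRNPA2B1 36 nt, chr7:26197831-26197866, - strand: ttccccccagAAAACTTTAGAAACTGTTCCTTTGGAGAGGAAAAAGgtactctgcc
PCBP2 39 nt, chr12:53467805-53467843, + strand: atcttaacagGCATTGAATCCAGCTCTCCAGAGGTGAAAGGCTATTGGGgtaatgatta
PTBP1 78 nt, chr19:805492-805569, + strand: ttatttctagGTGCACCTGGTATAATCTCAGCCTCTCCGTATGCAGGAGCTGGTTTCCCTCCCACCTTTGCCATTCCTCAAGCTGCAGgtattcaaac
HNRNPD 57 nt, chr4:82371528-82371584, - strand: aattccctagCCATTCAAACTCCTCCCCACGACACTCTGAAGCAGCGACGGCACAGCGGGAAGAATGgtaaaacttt
EIF4H 60 nt, chr7:74190247-74190306, + strand: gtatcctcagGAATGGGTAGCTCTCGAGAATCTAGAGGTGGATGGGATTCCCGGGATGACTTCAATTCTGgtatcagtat
GNAS 45 nt, chr20:58898941-58898985, + strand: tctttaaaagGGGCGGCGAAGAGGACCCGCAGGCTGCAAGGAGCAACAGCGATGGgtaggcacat
CTTN 111 nt, chr11:70421470-70421580, + strand: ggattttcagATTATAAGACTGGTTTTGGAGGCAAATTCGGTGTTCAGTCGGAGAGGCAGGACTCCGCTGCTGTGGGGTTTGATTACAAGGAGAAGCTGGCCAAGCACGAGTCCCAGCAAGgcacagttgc
The exon of CTTN is followed by gc in place of gt. Of the 13 exons shown, only that of TRIM14 holds TAAA, and none holds TTAA or TAGG.

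The members had a median length of 105 nt over the 1315 exons (interquartile range 75 to 147 nt), and the exons hold 10 to 100 triplets, with a median of 35. Most of them lay in coding sequence. By GENCODE 44, 975 exons (74.1%, 95% Wilson interval 71.7% to 76.4%) were coding over their whole length in a protein-coding transcript, 74 were partly coding, 120 lay in untranslated regions, 145 were found only in transcripts that are not classed as protein coding, and 1 was not annotated as an exon. The canonical transcript contained 898 of them (68.3%). Among the 1354 alternative exons of other lengths that met the same limits, 51.7% were coding (49.0% to 54.4%), and among the 21499 nearly constitutive exons (control PSI above 90%) 89.3% were (88.9% to 89.7%). All intervals cover counting error only, and exons of the same gene are not independent.

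Lengths that keep the frame were more frequent at intermediate inclusion than at either end. Among exons of 28 to 300 nt with at least 50 reads, the share divisible by 3 was 49.3% for a control PSI of 10% to 90% (1315 of 2669 exons, Wilson interval 47.4% to 51.2%). It was 37.2% (35.7% to 38.7%) below 10% and 40.4% (39.8% to 41.1%) above 90%. Within the alternative range, the share was 50.8% for a control PSI of 10% to 30%, 56.8% for 30% to 50%, 50.8% for 50% to 70% and 46.4% for 70% to 90%, and the intervals of neighbouring classes overlapped.

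**Figure D1:**
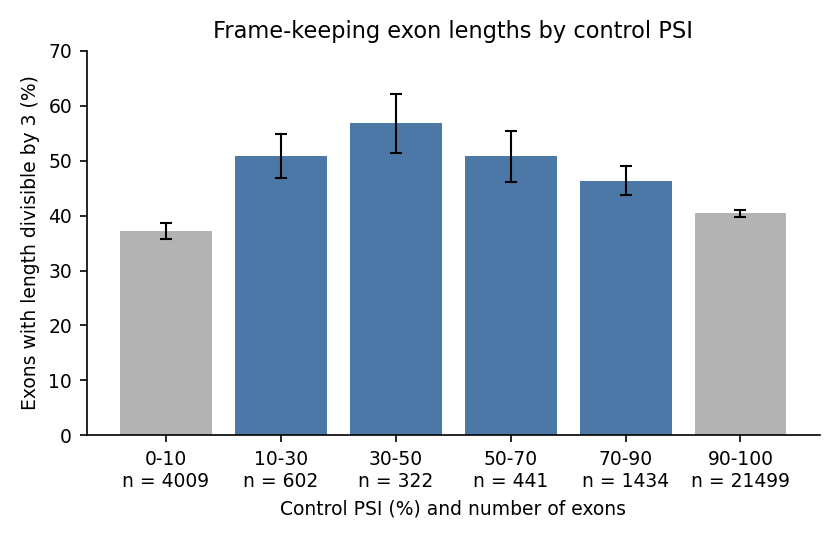
Share of exons whose length is divisible by 3 (vertical axis, %) by class of control PSI (horizontal axis, with the number of exons), where bars start at 0 and error bars are 95% Wilson intervals. The blue classes, which hold the exons described here, range from 46.4% to 56.8%, above the 37.2% and 40.4% of the grey classes at either end.

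The coding members also differed from nearly constitutive exons in where they cut the codons. An exon with a length divisible by 3 begins and ends at the same position of a codon. Of the 975 coding exons, 471 began between codons (48.3%, Wilson interval 45.2% to 51.4%), 351 after the first base of a codon (36%, 33.0% to 39.1%) and 153 after the second (15.7%, 13.5% to 18.1%). Among the 7905 nearly constitutive coding exons of such length, 59.5% (58.4% to 60.6%) began between codons and 26.5% (25.5% to 27.5%) after the first base. Each of the 3 reading frames held a stop codon in 162 members (12.3%, 10.7% to 14.2%), against 21.1% of the alternative exons of other lengths, 40.7% of the rarely included exons (control PSI below 10%) and 3.39% of the nearly constitutive exons.

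The splice sites of the members were weaker by a score than those of the nearly constitutive exons on which the score was built. The score is the sum over positions of log2 odds against equal base frequencies. Its median was 8.81 at the 3' splice site and 7.54 at the 5' splice site, against 9.21 and 8.02 for the nearly constitutive exons, and 8.69 and 7.87 for alternative exons of other lengths. TAAA or TTAA, the core of the sites that SAM68 binds (UAAA or UUAA in RNA, which share letters and can overlap), occurred on the strand of the gene in 33.4% of the exons (30.9% to 35.98%), against 40.1% of the exons of all tested events. In the 150 intron bases before the exon it occurred in 63.9% against 65.2%, and in the 150 bases after it in 62.0% against 64.2%. TAGG, the core of the site of hnRNP A1, was found in 13.5% of the exons, 29.0% of the windows before and 36.4% of those after, against 14.2%, 32.0% and 38.7%. The other strand was not counted. The windows in introns have 1 length, but the exons do not, and the members are shorter than the exons of all tested events (median 117 nt).

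Most members were included by the majority of transcripts. Of the 1416 events, 310 had a control PSI of 10% to 30%, 188 of 30% to 50%, 228 of 50% to 70% and 690 (48.7%) of 70% to 90%. At the lower limit, an event of BPHL lay exactly on 10% and the nearest one outside, in VPS29, at 9.96%. At the upper limit, an event of ATG4D lay exactly on 90% and the nearest outside, in PATL1, at 90.01%. With SAM68 the mean PSI of these 4 was 12.8%, 5.76%, 100% and 83.8%.

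The inclusion of most members was similar in SAM68 and control cells. The change in PSI, SAM68 minus control in percentage points, was under 5 points in 872 events (61.6%), under 10 points in 88.1% and under 20 points in 98.3%. Its median was 0.746 points, against 0.0365 over all 47450 tested SE events and 0.870 for alternative exons of other lengths. The mean PSI of the members was 60.2%, 59.9% and 59.6% with the empty plasmid and 61.0%, 61.1% and 60.8% with SAM68. The median PSI was 68.9%, 68.7% and 67.5% against 68.6%, 68.7% and 68.03%, so that the means of the groups lay apart and the medians overlapped. Since the rule bounds the PSI of the control libraries and not that of the SAM68 libraries, this comparison is not even-handed. In the control libraries 21 to 26 members were at 100%, and in the SAM68 libraries 46 to 65. When the same limits were set on the PSI of all 6 libraries together, which was added after seeing the data, the median change over 1384 events was 0.149 points.

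**Figure D2:**
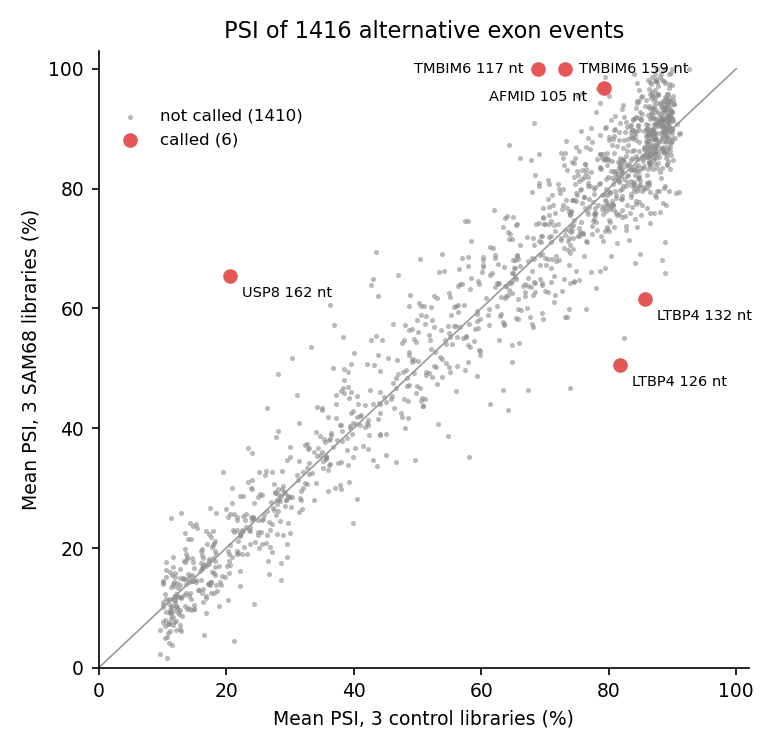
Mean PSI of each of the 1416 events in the 3 control libraries (horizontal axis, %) and in the 3 SAM68 libraries (vertical axis, %), with the line of equal values. Grey points are the events that were not called, most of which lie less than 10 points from the line. Red points are the 6 called events of USP8, TMBIM6, AFMID and LTBP4.

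The spread between libraries fell with depth. For the 579 members with a mean of 50 to 100 reads, the median standard deviation (SD) of PSI was 7.37 points within the control group and 7.37 points within the SAM68 group. It was 4.47 and 4.51 points for the 594 members with 100 to 300 reads, 2.65 and 2.89 points for the 199 with 300 to 1000 reads, and 1.04 and 1.45 points for the 44 with more. The median absolute change was 5.29 points in the shallowest class and 1.10 points in the deepest.

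**Figure D3:**
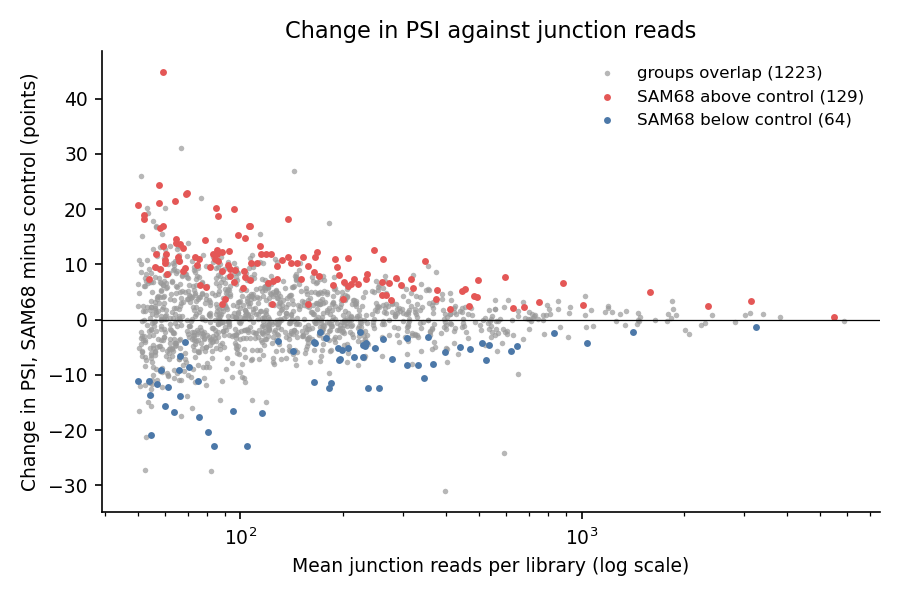
Change in PSI (vertical axis, points, SAM68 minus control) against the mean junction reads per library (horizontal axis, log scale) for the 1416 events. Red and blue points are the 129 and 64 events in which every SAM68 library lay above or below every control library, and the width of the cloud shrinks as the reads rise.

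In 129 members (9.11%) all SAM68 libraries lay above all control libraries, where 2.55% of all tested events did, and in 64 members (4.52%) they lay below, where 2.17% did. These backgrounds hold many events that could not separate, because 69.7% of all tested events, but 1.77% of the members, were at 100% or at 0% in a library of each group. Among the events that could separate, 13.9% of the members and 15.5% of all tested events did so. By direction, 9.27% of these members and 8.40% of these tested events were higher, and 4.60% and 7.15% lower. Whether an event could separate was read from the same PSI values, and all 2238 separated events pass. These shares are therefore not an even background. Of all alternative exon events of other lengths, 7.98% were higher without overlap and 3.79% lower. The excess of higher over lower members shrank to 104 against 77 when the limits were set on all 6 libraries. An unadjusted p under 0.05 was reached by 172 members (12.1%), against 5.57% of all tested events. It was reached by 10.3% of the alternative exon events of other lengths and by 4.62% of the nearly constitutive ones.

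The test called 6 events, each on a different exon, in 4 genes. These were 2 exons of TMBIM6, 2 of LTBP4, 1 of AFMID and 1 of USP8. They passed an adjusted p of 0.05 (quasi-binomial test of inclusion against skipping reads, Benjamini-Hochberg adjustment over 47450 SE events) with a change of at least 10 points. The share called was 0.424% of the members, against 0.744% (11 events) of the alternative exon events of other lengths. The 4 events of TMBIM6, AFMID and USP8 were higher in SAM68, where 0.0443% of all tested events were called higher, and the 2 of LTBP4 were lower, where 0.0295% were called lower (0.0738% in either direction). All 6 belong to the 91 members (6.43%) in which some library lacked reads of a form that had 10 or more in another library of its group, and only that of USP8 had groups that did not overlap. Among the 1325 other members the quasi-binomial test called 0, while 144 had an unadjusted p under 0.05, limma on the log odds of inclusion called 0 and a likelihood ratio test on pooled counts called 78, where that test called 1.74% of all tested events. The quasi-binomial test also called 0 of all members when each event kept the larger of its own and the shared spread.

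LTBP4 (ENSG00000090006.17) encodes a protein of the extracellular matrix that binds latent TGF-beta. The 132-nt exon (exon 20, chromosome 19, 40616889 to 40617020) had PSI values of 100%, 56.9% and 100% with the empty plasmid and 60.7%, 71.1% and 52.8% with SAM68 when read against the junction that skips it together with exon 21. The control library in list position 2 therefore lay among the SAM68 libraries. The means were 85.6% ± 24.9 and 61.5% ± 9.20 (SD, n = 3 each), a fall of 24.1 points (quasi-binomial adjusted p = 7.52e-09, and p = 0.3 in the exact two-sided permutation test). The skipping junction had 0, 187 and 0 reads with the empty plasmid and 161, 93 and 187 with SAM68. With 0 of 524 reads in both other control libraries, a skipping share of up to 0.573% of reads remained possible there.

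The 126-nt exon of LTBP4 (exon 21, 40617100 to 40617225) shares these skipping reads, so that both calls rest on 1 junction. Its PSI was 100%, 45.2% and 100% with the empty plasmid and 49.9%, 58.5% and 43.4% with SAM68 (-31.1 points, adjusted p = 7.56e-07). With the control library of list position 1 left out, the adjusted p was 0.0853 for exon 20 and 0.218 for exon 21, and without that in position 3 it was 0.0686 and 0.289. Without the control library in position 2 the changes were -38.5 and -49.4 points. They were -10.7 and -11.5 points with all events of each exon summed, and -14.9 and -20.7 points without division by length. Such a sum, here and for the exons below, counts a junction that events share more than once. Against junctions that skip only 1 of these exons, both were close between the groups. Exon 20 had 86.7%, 96.9% and 83.3% with the empty plasmid and 89.0%, 86.1% and 83.3% with SAM68 (-2.86 points, adjusted p = 0.699). Exon 21 had 69.97%, 75.9% and 67.3% against 71.9%, 66.6% and 66.3% (-2.79 points, adjusted p = 0.699). Another exon of LTBP4, the 72-nt exon 24 (40622950 to 40623021), looked at after its values were seen, had 48.0%, 48.2% and 47.9% against 41.5%, 40.1% and 38.4% in 1 of its 2 events (-8.01 points, adjusted p = 0.699), without overlap, while the other event differed by -3.43 points with overlap.

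AFMID (ENSG00000183077.15) encodes arylformamidase, an enzyme of the kynurenine pathway of tryptophan breakdown. Its 105-nt coding exon (exon 10, chromosome 17, 78205946 to 78206050) had differences of opposite sign with different upstream exons. Beside the upstream exon of 49 nt, the PSI was 65.0%, 72.6% and 100% with the empty plasmid and 90.3%, 100% and 100% with SAM68 (+17.6 points, adjusted p = 0.00271, exact two-sided permutation p = 0.4). The control library in list position 3 overlapped the SAM68 libraries. Beside the upstream exon of 91 nt it was 81.8%, 100% and 84.6% against 74.2%, 52.6% and 70.8%, without overlap but also without passing the threshold (-22.9 points, adjusted p = 0.155). With the reads of both events summed, the change was 1.24 points (adjusted p = 0.778), and without division by length that of the called event was 11.6 points. The call was lost without the control library in list position 1 (10.5 points, adjusted p = 0.595) or 2 (14.3 points, 0.0610), and without the SAM68 library in position 2 (15.9 points, 0.0944) or 3 (15.9 points, 0.110). Without the control library in position 3 the change was 27.9 points.

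USP8 (ENSG00000138592.13) encodes a deubiquitinase of endosomes. Its 162-nt exon (chromosome 15, 50432338 to 50432499) lies in an untranslated region and is absent from the canonical transcript. The PSI was 25.5%, 25.5% and 10.6% with the empty plasmid and 60%, 36.3% and 100% with SAM68, each SAM68 library being above each control library. The rise from 20.5% ± 8.59 to 65.4% ± 32.2 (SD, n = 3 each), 44.9 points, is the largest among the members (adjusted p = 0.0160). It rests on 28 to 91 reads per library, and with a spread that depends on the reads of the rarer form, added after seeing the data, the adjusted p was 0.161. With a library left out the change ranged from 27.6 to 59.5 points. The adjusted p was then 0.275 without the control library in list position 3 (39.9 points), 0.0930 without the SAM68 library in position 1 (47.6 points) and 0.570 without that in position 3 (27.6 points). Beside another upstream exon the same exon had 44.6%, 49.0% and 26.2% against 12%, 34.1% and 26.6% (-15.7 points, adjusted p = 0.699), and with both events summed the difference was 8.53 points (adjusted p = 0.730).

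TMBIM6 (ENSG00000139644.12) encodes a membrane protein of the endoplasmic reticulum that inhibits cell death by BAX. Its called exons of 159 nt (chromosome 12, 49741957 to 49742115) and 117 nt (49749618 to 49749734) are untranslated and outside the canonical transcript. The PSI of the 159-nt exon was 100%, 19.3% and 100% with the empty plasmid and 100% in all libraries with SAM68, and that of the 117-nt exon 100%, 6.62% and 100% against 100% in each. Both calls (adjusted p = 2.44e-22 and 7.82e-13) come from the same 246 skipping reads, all in the control library in list position 2. Without that library the change was 0 points in both, and the exact permutation p was 1 with it.

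Events that share an exon and differ in the flanking exons often differed in their change. Of the 93 exons with more than 1 event among the members, 46 (49.5%) had events with differences of opposite sign, and the median spread between the changes of 1 exon was 6.55 points. The widest spreads, of 60.6, 40.4 and 28.3 points, were those of USP8, AFMID and the 126-nt exon of LTBP4.

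**Figure D4:**
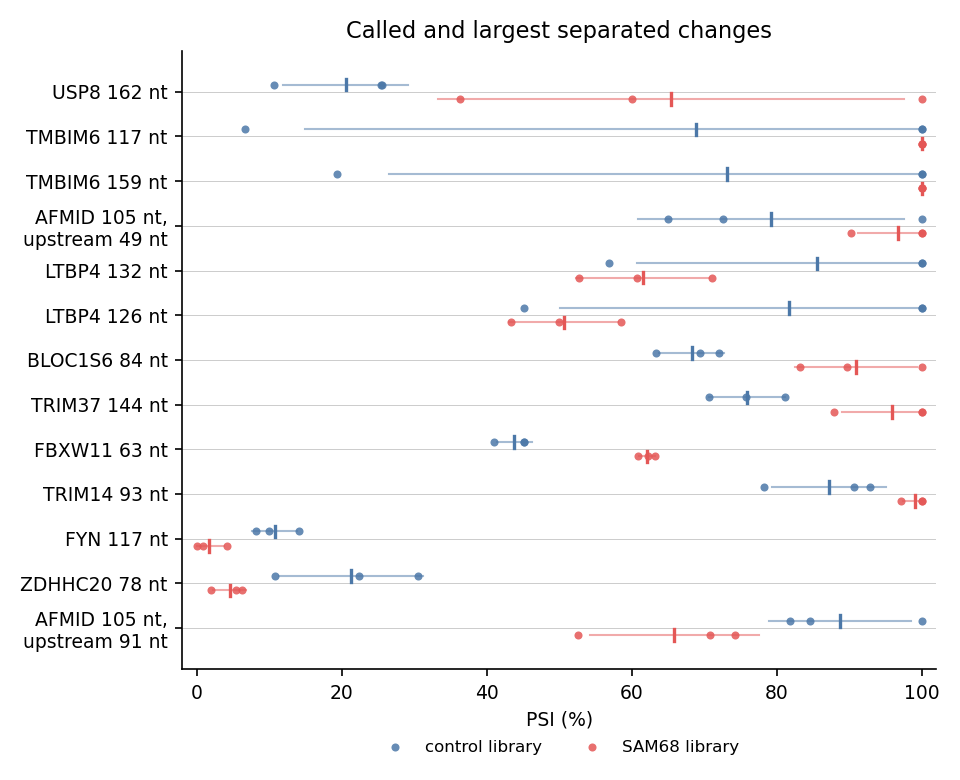
PSI (horizontal axis, %) of each library for the 6 called events (upper rows) and for the largest rises and falls among the other events without overlap that had at least 20 reads in each library and an unadjusted p under 0.001, with control libraries in blue and SAM68 libraries in red. Ticks are means and lines are ± 1 SD (n = 3, drawn within 0% to 100%), and the libraries of LTBP4, TMBIM6 and the called AFMID event overlap between the groups while those of FBXW11 lie apart with little spread.

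In 13 events of 12 genes the groups did not overlap, each library had at least 20 reads and the unadjusted p was under 0.001. Of the members, 10 (0.706%) were higher in this way, where 0.131% of all tested events were, and 3 (0.212%) lower, where 0.0906% were. Most tested events are at 100% or at 0% in a library of each group and could not separate. Of the events that could, the shares were 0.719% of the members and 0.431% of all tested events higher, and 0.216% and 0.299% lower. Which events could separate was again read from the same values, so this background is not even. With the limits set on the PSI of all 6 libraries, the counts were 7 and 4. Of the 13, USP8 alone was called, and the AFMID event beside the 91-nt exon is another. The values of further ones follow, without a call.

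FBXW11 (ENSG00000072803.17) encodes beta-TrCP2, a substrate receptor of SCF ubiquitin ligases. Its 63-nt coding exon (exon 3, chromosome 5, 171914343 to 171914405) had PSI values of 41.1%, 45.2% and 45.2% with the empty plasmid and 62.2%, 63.2% and 60.9% with SAM68. The difference was 18.3 points beside SDs of 2.39 and 1.14 points (n = 3 each), at 99 to 173 reads per library. The adjusted p was 0.230, and with each library left out the change lay between 16.9 and 19.0 points. With all events of the exon summed it was 13.8 points. The exon is the shortest and the poorest in G and C (36.5%) of the first set of sequences.

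TRIM37 (ENSG00000108395.13), a ubiquitin ligase that limits the formation of centrioles, had its 144-nt exon (chromosome 17, 59001598 to 59001741) at 70.6%, 75.8% and 81.1% with the empty plasmid and at 100%, 100% and 87.9% with SAM68 (+20.1 points, adjusted p = 0.128). The skipping form had 16, 18 and 12 reads in the former and 0, 0 and 4 in the latter. With the SAM68 library of list position 3 left out, the adjusted p was 0.0314, and with any other library left out it was 0.123 to 0.7002. Without division by length the change was 11.6 points. A 117-nt form of the exon with the same genomic start differed by 10.9 points (adjusted p = 0.121) and shares these skipping reads. The 93-nt exon 5 of TRIM14 (ENSG00000106785.14; chromosome 9, 98091909 to 98092001), an adaptor of antiviral signalling at mitochondria, had PSI values of 90.6%, 78.2% and 92.9% against 97.2%, 100% and 100% (+11.8 points, adjusted p = 0.198). The change of TRIM14 was 4.44 points with all events of the exon summed, 7.47 points without division by length and 7.33 points without the control library in position 2. The skipping form of TRIM14 was read 8, 16 and 5 times with the empty plasmid and 2, 0 and 0 times with SAM68. The 84-nt exon of BLOC1S6 (ENSG00000104164.10), which encodes a subunit of a complex for lysosome-related organelles, had 63.4%, 72.0% and 69.5% against 89.7%, 100% and 83.3% (+22.7 points, adjusted p = 0.187). It is annotated at chromosome 15, 45603104 to 45603187, only in transcripts not classed as protein coding.

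ZDHHC20 (ENSG00000180776.15) encodes an enzyme that attaches palmitate to proteins. Its 78-nt exon 12 (chromosome 13, 21378661 to 21378738, partly coding) had 22.3%, 30.5% and 10.8% with the empty plasmid and 5.40%, 1.92% and 6.26% with SAM68 (-16.7 points, adjusted p = 0.0594). With the control library of list position 3 left out, the adjusted p was 0.0155, and with any other library left out it was 0.109 to 0.521. The 117-nt exon of FYN (ENSG00000010810.17), a tyrosine kinase of the Src family, lies in an untranslated region (chromosome 6, 111740981 to 111741097). It had 8.09%, 10.01% and 14.1% against 0.845%, 4.09% and 0% (-9.10 points, or -15.5 points without division by length, adjusted p = 0.209). The last value of FYN is 0 of 69 reads, which allows a share of up to 4.35% of reads.

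The most deeply read members show how closely the libraries can match. At least 300 reads in each library were present in 190 members, of which 32 (16.8%) had groups that did not overlap, 19 higher and 13 lower, where 5.57% of the 9207 tested events of this depth did not overlap. This background was not limited to events that could separate. The absolute changes of the 32 ran from 0.481 to 7.67 points, and the smallest adjusted p was 0.102. This depth, and the examples that follow, were chosen after the values were seen.

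The first examples are exons of RNA-binding proteins and translation factors, a grouping that was not tested. The 57-nt exon 2 of HNRNPD (ENSG00000138668.18; chromosome 4, 82371528 to 82371584), which encodes the mRNA-decay factor AUF1, had 78.2%, 81.2% and 80.5% with the empty plasmid and 84.96%, 85.03% and 84.8% with SAM68 (+4.99 points, adjusted p = 0.118). The 60-nt exon 5 of EIF4H (ENSG00000106682.14; chromosome 7, 74190247 to 74190306), a cofactor of the helicase eIF4A, had 41.0%, 40.5% and 40.6% against 43.9%, 43.6% and 44.5% (+3.30 points, adjusted p = 0.375). Its SDs of 0.276 and 0.429 points, at 2768 to 3411 reads per library, were small beside the change. The 111-nt exon of EIF4A2 (ENSG00000156976.16), itself an eIF4A helicase, had 26.8%, 23.1% and 20.4% against 30.5%, 32.8% and 29.96% (+7.67 points, adjusted p = 0.102). It lies on chromosome 3 from 186788310 to 186788420, in transcripts not classed as protein coding.

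In genes of kinase signalling, deep exons lay in both directions. MAP4K4 (ENSG00000071054.16), a kinase upstream of JNK, had its 162-nt exon 16 at 25.7%, 28.1% and 27.9% against 33.9%, 31.1% and 33.1% (+5.46 points, adjusted p = 0.699), and in a second event of fewer reads at 76.3% ± 6.17 against 76.7% ± 4.69 (SD, n = 3). Its 192-nt exon 24 was at 39.0%, 36.2% and 38.4% against 29.5%, 27.4% and 34.8% (-7.31 points, adjusted p = 0.378). MAPKAP1 (ENSG00000119487.16), which encodes SIN1 of the mTORC2 complex, had its 108-nt exon 8 at 58.3%, 58.2% and 60.02% against 56.8%, 52.7% and 54.3% (-4.25 points, adjusted p = 0.699).

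Among 6 lists of genes, no member was called in any, at 38 events for adhesion and cytoskeleton, 51 for membrane traffic, 35 for RNA binding and splicing, 59 for transcription and chromatin, 56 for kinases and signalling and 6 for genes known as SAM68 targets in other cells. An unadjusted p under 0.05 was reached by 4, 3, 6, 5, 10 and 0 events of these lists, where 12.1% of all members and 5.57% of all tested events reached it. Limma on the log odds called 0 in each list, and the likelihood ratio test gave 2, 1, 1, 2, 5 and 0 calls, where it called 94 of all members and 1.74% of all tested events. Without overlap, 2, 3, 5, 5, 5 and 0 of these events were higher and 0, 0, 1, 0, 4 and 0 lower, where 9.11% of all members and 2.55% of all tested events were higher in this way and 4.52% and 2.17% lower. The median changes were 0.0759, 0.698, 0.548, 0.422, 1.95 and 1.18 points, against 0.746 over all members and 0.0365 over all tested events. For each list, the 3 genes with the most-read events are described in turn, whatever their change. None of the events described passed the threshold.

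Of the RNA-binding proteins, HNRNPA2B1 (ENSG00000122566.21) had the deepest of them, the 36-nt exon (chromosome 7, 26197831 to 26197866) that distinguishes the B1 from the A2 protein. Its PSI was 16.9%, 16.7% and 16.8% with the empty plasmid and 17.0%, 17.2% and 17.7% with SAM68, at 4987 to 6329 reads per library. The groups lay apart by a difference of only 0.481 points (adjusted p = 0.699), which was 0.264 points with the SAM68 library of list position 3 left out. The 39-nt exon 12 of PCBP2 (ENSG00000197111.15; chromosome 12, 53467805 to 53467843), a poly(C)-binding protein, had 70.5%, 69.4% and 68.8% against 71.6%, 71.7% and 72.9% (+2.46 points, adjusted p = 0.699), also without overlap.

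PTBP1 (ENSG00000011304.19) encodes a splicing repressor, and its exon 9 lies between RNA-binding domains. The 78-nt form (chromosome 19, 805492 to 805569) had 67.9%, 73.6% and 70.6% with the empty plasmid and 76.8%, 72.9% and 72.4% with SAM68 (+3.37 points, adjusted p = 0.699), with overlap between the groups. A 57-nt form of the same exon, which starts further downstream (805513) and was looked at after its values were seen, had 43.9%, 51.3% and 47.5% against 57.3%, 52.9% and 52.3% (+6.62 points, adjusted p = 0.337), without overlap. Both forms share the same skipping reads, so they are not separate observations.

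In membrane traffic, the 168-nt exon 7 of APP (ENSG00000142192.20) and that of its relative APLP2 (ENSG00000084234.17) encode a Kunitz-type protease inhibitor domain. The exon of APP was at 90.1%, 91.5% and 88.1% with the empty plasmid and 89.9%, 88.9% and 89.0% with SAM68. The exon of APLP2 was at 42.1%, 41.9% and 38.9% against 40.8%, 39.8% and 41.2%. Of the pair of relatives, APP thus included the exon in most and APLP2 in a minority of transcripts, in every library, and the groups differed by -0.629 and -0.352 points (adjusted p = 0.739 and 0.885). The 150-nt exon 13 of the clathrin adaptor gene PICALM (ENSG00000073921.17) was at 49.9% ± 2.53 and 47.0% ± 6.07 (SD, n = 3 each; adjusted p = 0.699).

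In signalling, GNAS (ENSG00000087460.24) encodes the stimulatory G protein alpha subunit, whose long and short forms differ by the 45-nt exon 3 (chromosome 20, 58898941 to 58898985). Its PSI was 54.05%, 57.04% and 58.7% with the empty plasmid and 54.7%, 55.5% and 60.4% with SAM68 (+0.289 points, adjusted p = 0.935), and in a second event, beside other flanking exons, 18.3% ± 0.303 and 19.5% ± 3.16 (SD, n = 3; adjusted p = 0.699). The 84-nt exon of the casein kinase gene CSNK1A1 (ENSG00000113712.17) was at 11.5% ± 1.20 and 10.3% ± 2.50, and the 189-nt exon of the kinase gene PAK4 (ENSG00000130669.17) at 86.9% ± 3.73 and 88.3% ± 3.42 (SD, n = 3 each; adjusted p = 0.699 and 0.710).

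In adhesion and the cytoskeleton, the 111-nt exon 11 of CTTN (ENSG00000085733.15; chromosome 11, 70421470 to 70421580) encodes one of the repeats by which cortactin binds actin filaments. It was at 75.9%, 81.5% and 80.4% with the empty plasmid and 79.4%, 80.4% and 77.5% with SAM68 (-0.182 points, adjusted p = 0.981). The 102-nt exon 10 of PXN (ENSG00000089159.16), the focal adhesion protein paxillin, was at 27.0% ± 2.28 and 27.7% ± 0.661, and the 147-nt exon 14 of EPB41L2 (ENSG00000079819.18), a protein 4.1 that links membrane and cytoskeleton, at 33.0% ± 1.23 and 32.4% ± 4.74 (SD, n = 3 each; adjusted p = 0.828 and 0.918).

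Of the transcription and chromatin genes, the 201-nt exon 4 of USF2 (ENSG00000105698.15), a transcription factor that binds E-boxes, was at 64.8% ± 0.466 and 64.6% ± 1.35 (adjusted p = 0.965). The 93-nt exon 9 of ZNF207 (ENSG00000010244.18), a zinc finger protein of the kinetochore, was at 57.7% ± 2.97 and 55.3% ± 2.20 (adjusted p = 0.699). The 51-nt exon 4 of MTA1 (ENSG00000182979.17), a subunit of the NuRD complex, varied more, from 31.7% to 49.4% with the empty plasmid and from 36.8% to 45.4% with SAM68 (adjusted p = 0.944; SD, n = 3 for each of these genes).

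Of the genes known as SAM68 targets in other cells, only BIN1, SGCE and PKM had members. The 90-nt exon 16 of BIN1 (ENSG00000136717.14), which shapes membranes, was at 63.2%, 59.8% and 66.4% with the empty plasmid and 59.9%, 63.6% and 62.0% with SAM68 (-1.31 points, adjusted p = 0.908), and a second event of it with fewer reads differed by 3.03 points (adjusted p = 0.731). The 123-nt exon 2 of SGCE (ENSG00000127990.17), epsilon-sarcoglycan, was at 83.5% ± 5.07 and 83.2% ± 4.17 (SD, n = 3 each; adjusted p = 0.996). The member of PKM (ENSG00000067225.17), the pyruvate kinase gene, is a 117-nt exon of a noncanonical transcript at the 5' side of the gene (chromosome 15, 72221168 to 72221284), not exon 9 or 10. It was at 16.6%, 19.8% and 15.7% against 19.2%, 7.14% and 15.9% (-3.30 points, adjusted p = 0.699), at 63 to 88 reads per library. With all events of the exon summed, most of whose reads belong to an event in which it is rarely included, the change was -0.692 points (adjusted p = 0.00425), under the limit of 10 points. Junctions shared between events count more than once in such a sum.

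**Figure D5:**
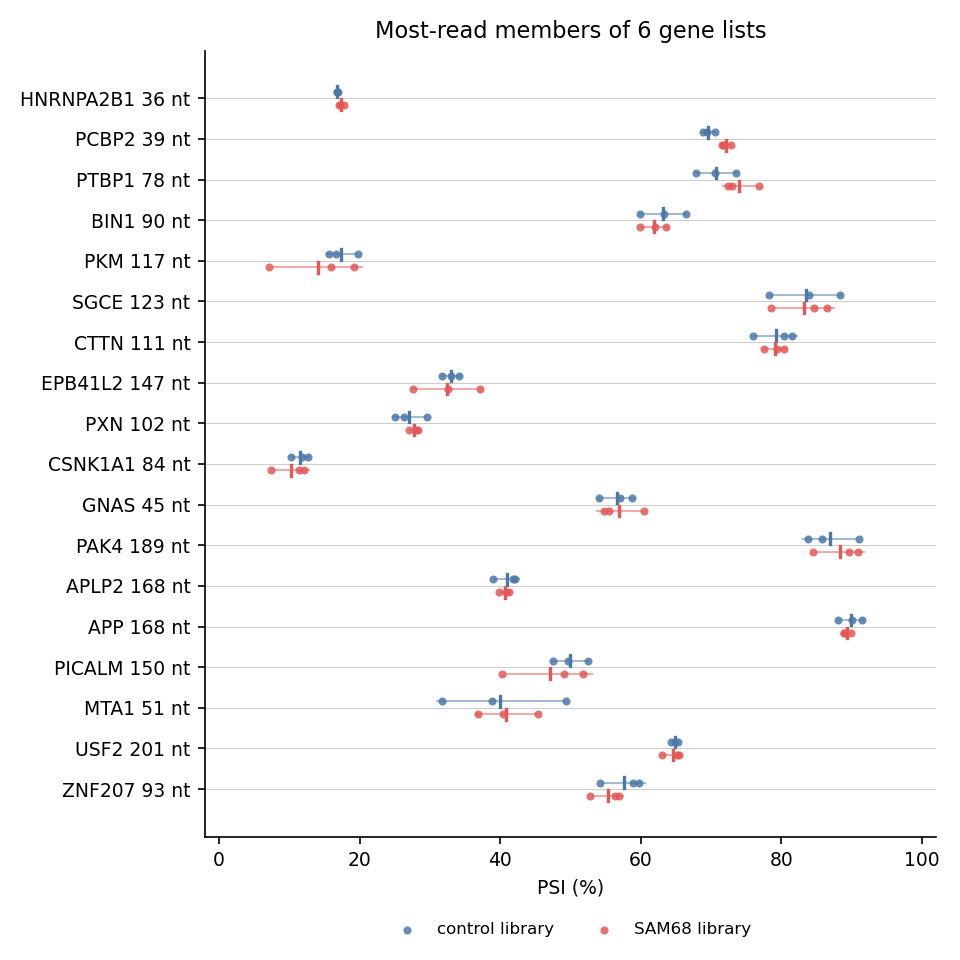
PSI (horizontal axis, %) of each library for the most-read events of 6 gene lists, with control libraries in blue, SAM68 libraries in red, ticks at the means and lines of ± 1 SD (n = 3). The pairs of groups lie close together at levels from about 10.3% in CSNK1A1 to 89.9% in APP, and only those of HNRNPA2B1 and PCBP2 do not overlap.

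The members of these lists whose groups did not overlap were looked at after this was known, and none of the following passed the threshold. Among transcription and chromatin genes, all 5 (of 59 events) were higher with SAM68, where 9.11% of all members and 2.55% of all tested events were. Lower were 4.52% of all members. With members chosen on all 6 libraries, the shares were 7.51% higher and 5.56% lower. The 102-nt exon 10 of EHMT2, which encodes the histone H3 methyltransferase G9a, had 48.3%, 47.7% and 54.9% against 66.7%, 57.2% and 58.95% (+10.7 points, adjusted p = 0.288). The 165-nt exon 28 of PBRM1, a subunit of a SWI/SNF chromatin remodelling complex, had 48.6%, 51.05% and 46.3% against 60.9%, 66.7% and 53.8% (+11.8 points, adjusted p = 0.699). TEAD1, a transcription factor of the Hippo pathway, had its 153-nt exon of an untranslated region at 72.3%, 65.8% and 81.8% against 85.7%, 86.2% and 91.7% (+14.6 points, adjusted p = 0.699). The separation of TEAD1 and PBRM1 rests on few reads, 30 to 108 in a library. The other 2 were the 102-nt exon of KDM4B, a histone demethylase, and the 57-nt exon of MED24, a Mediator subunit, which differed by +10.995 and +9.94 points. With the control library of list position 2 left out, KDM4B differed by +6.91 points.

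Kinase and signalling genes held separated members in both directions. The 45-nt exon 17 of MARK3, a kinase that acts on microtubule-associated proteins, had 46.6%, 48.9% and 78.5% against 38.96%, 36.2% and 30.4% (-22.8 points, adjusted p = 0.439), with the control library of list position 3 far above the others of its group. With that library of MARK3 left out, the difference was -12.6 points. MARK2, a relative of it, had its 162-nt exon 15 at 50.4%, 36.9% and 43.05% against 53.8%, 56.9% and 55.4% (+11.9 points, adjusted p = 0.699). The 84-nt exon 17 of PIP5K1C, a lipid kinase of focal adhesions and synapses, had 13.2%, 36.2% and 35.1% against 57.9%, 44.5% and 44.6% (+20.8 points, adjusted p = 0.63), and the difference was +13.3 points with the low control library of list position 1 left out. The 63-nt exon 13 of STK39, a kinase that regulates ion cotransporters, had 54.9%, 61.2% and 57.5% against 67.01%, 66.7% and 67.5% (+9.18 points, adjusted p = 0.699). The SAM68 libraries of STK39 lay within a point of each other.

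In adhesion (2 of 38 events) and membrane traffic (3 of 51), all separated members were higher with SAM68, where 9.11% of all members and 2.55% of all tested events were. The largest rise in membrane traffic was 10.2 points. NF2 encodes merlin, a tumour suppressor that links membrane and actin. Its neighbouring 126-nt exon 2 and 123-nt exon 3 had 83.6%, 86.4% and 92.3% against 100%, 100% and 94.05% (+10.6 points, adjusted p = 0.699) and 89.7%, 85.8% and 91.3% against 100%, 100% and 93.1% (+8.79 points, adjusted p = 0.699). Both exons of NF2 were at 100% in the same SAM68 libraries. The 159-nt exon 6 of MFF, a receptor for mitochondrial fission, had 12.4%, 15.5% and 13.7% against 16.9%, 15.7% and 22.1% (+4.38 points, adjusted p = 0.699), and the difference was +2.43 points with the SAM68 library of list position 3 left out. Over the 3 events of this exon of MFF, the differences ran from +1.29 to +7.84 points, and over the 4 events of its 60-nt exon from -8.19 to +2.44 points.

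Further deep members without overlap follow. UBQLN1, a shuttle factor of the proteasome, had its 84-nt exon 8 at 82.4%, 82.3% and 83.7% against 86.9%, 83.8% and 85.6% (+2.67 points, adjusted p = 0.699). A 45-nt form of this exon of UBQLN1, which shares its skipping reads, had 55.03%, 56.2% and 58.8% against 65.96%, 61.1% and 65.2% (+7.42 points, adjusted p = 0.699). The 60-nt exon 4 of TPD52L2 had 70.7%, 70.3% and 68.1% against 72.05%, 77.1% and 81.1% (+7.09 points, adjusted p = 0.699). The 144-nt exon 3 of NUP54, a component of the nuclear pore, had 91.5%, 89.1% and 88.01% against 94.9%, 94.1% and 95.04% (+5.12 points, adjusted p = 0.699). These were higher with SAM68 in every library. The 132-nt exon 7 of VMP1, an autophagy protein of the endoplasmic reticulum, had 51.5%, 54.7% and 55.4% against 49.9%, 47.9% and 47.8% (-5.37 points, adjusted p = 0.699). The 147-nt exon 11 of BCLAF1 had 84.1%, 86.1% and 80.3% against 76.8%, 78.8% and 80.04% (-4.96 points, adjusted p = 0.699). In the 33-nt exon 4 of HMGA2, a chromatin protein that binds the minor groove, at 2827 to 3691 reads per library, the groups lay apart at a difference of -1.33 points, which was -0.611 points with the SAM68 library of list position 3 left out.

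Groups without overlap, 13.6% of all members, were also counted by place and motif. Of all tested events 2.55% were higher in this way and 2.17% lower, and of alternative exon events of other lengths 7.98% and 3.79%. Of the 1041 events on coding exons, 143 (13.7%) had groups without overlap, and of the 375 others 50 (13.3%) did. The median change was 0.893 and 0.476 points. With TAAA or TTAA in the exon or its 150 flanking intron bases, 155 of 1145 events (13.5%) had groups without overlap, and without it 38 of 271 (14.02%). With TAGG the count was 128 of 843 (15.2%), and without it 65 of 573 (11.3%). The differences between these shares were not tested.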

How the data were processed

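The table of SE events of 3 control and 3 SAM68 libraries was used, and the 4 tables of other event types were not used here. Per the methods and the submitters' processing notes, the authors filtered the paired-end reads (fastp 0.20.0), aligned them with HISAT2 2.1.0 to GRCh38 and counted junction reads with rMATS (version not given in the sources used here). The deposited cells hold lists of 3 raw junction counts per group and the authors' inclusion levels, a fraction from 0 to 1, with no replicate numbers, beside the effective length of each form. The columns name the groups only by number. The first was taken as control from the heading of the authors' splicing plot, and KHDRBS1 was higher in the second. The authors' own p-values, FDR and differences were not used.

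PSI is the inclusion count over its effective length, as a share of the total when the skipping count is treated likewise. Recomputed values matched all 325778 deposited levels within 0.001. The 47450 SE events that averaged 10 or more reads per library entered a quasi-binomial model of inclusion and skipping counts comparing the 2 groups. Dispersions (Pearson) were moderated with squeezeVar (limma 3.58.1, R 4.3.3), which gave all events 1 value of 2.296. The median of the members' own dispersions was 2.43 and their upper quartile 4.05, so that the test is too lenient for events above the shared value. An event was called at a Benjamini-Hochberg adjusted p under 0.05 and a change of at least 10 points. The exact permutation test is two-sided, and 3 against 3 libraries give no p below 0.1. Wilson intervals (95%) and upper limits at 0 reads (3 reads) reflect counting error alone, because molecules were not tagged. Exons were placed by GENCODE 44, which holds 11221 of the 11255 gene identifiers of the table, and sequences come from hg38.

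Members, lists and tests were chosen with earlier results of these data known. Named are the called members, up to 5 of the greatest rises and 5 of the greatest falls (no overlap, at least 20 reads in each library, unadjusted p under 0.001), the 3 genes with the most-read members of each list and the events beside the limits. Alternatives covered the spread between libraries, the test, the minimum of reads, division by length, events of 1 exon, each library left out and the choice of members. Summing the events of 1 exon counts junction reads that they share more than once, so its PSI and p-values are descriptions.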

Additional observations from a re-analysis of the deposited data

How the results depend on the processing

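The number of called members depended on the treatment of the spread. It was 6 as reported, 0 with the larger of the event's own and the shared spread, 0 with each event's own spread, 0 with limma on the log odds of inclusion, and 94 with a likelihood ratio test on pooled counts, which ignores the spread. It was 0 without the members of which a form had 0 reads in 1 library and at least 10 in another of its group. With each library left out in turn it ranged from 4 to 8. The other alternatives gave 4 to 7. The number of members whose groups do not overlap was 193 of 1416 (9.11% higher and 4.52% lower). Among the 837 members with a mean of at least 100 reads it was 120 (8.96% higher and 5.38% lower). With each library left out it was 321 to 342, where fewer libraries have to separate. The median change of 0.746 points fell to 0.149 points for members chosen on the PSI of all 6 libraries, and lay between 0.653 and 0.910 points with each library left out. The choice on all 6 libraries, the trend in the spread and the removal of such members were added after seeing the data. No called event changed its direction. Of the events that were not called, that of AFMID beside the 91-nt exon went from -22.9 to 1.24 points with the events of the exon summed, and the small differences of most exons named from the gene lists, such as those of CTTN, GNAS, MTA1 and SGCE, took the other sign when a library was left out. The planned quasi-likelihood test of the form by group interaction was not run. No paired analysis was possible because the deposited lists carry no replicate numbers. Depth limits the shallow members: at 50 to 100 reads the median SD within a group was 7.37 points.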
